A study of Homo sapiens with 2 samples.

Results

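The RNAs described here are long non-coding and antisense transcripts, picked by name from 1 table of gene counts. A row was taken if its symbol was LINC followed by digits, or ended in -AS with an optional digit, if it lay on chromosomes 1 to 22, and if the higher of its read counts was at least 300. Rows on chromosome 14 between 24 and 36 Mb were left out. This gave 141 of the 29972 rows of the table, 52 with a LINC name and 89 with an antisense name. The table held 1219 rows with such names, of which 441 on these chromosomes had 0 counts in both libraries and 596 had at least 1 but fewer than 300 in the higher library. The read counts that admitted a row are also those compared below, so an RNA low in 1 tumour was admitted through the other.

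The study sequenced polyadenylated RNA of 2 xenografts in nude mice, placed under the skin. Both were grown from NCI-N87, an established line of human gastric cancer cells that carries extra copies of ERBB2, the gene for HER2. The refractory tumour came from a mouse that received trastuzumab emtansine (T-DM1), a HER2 antibody that carries the microtubule poison DM1, every 3 weeks for 18 weeks. The untreated tumour received nothing. Each group is 1 library of 1 tumour of the same line, so no spread between tumours can be estimated, no test was possible, and every difference below is a difference between these libraries.

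LINC is the prefix for RNAs transcribed between protein-coding genes, while an antisense RNA is named for the gene whose opposite strand it is read from. Some antisense RNAs overlap exons of that gene, and others start beside it and run the other way, from a promoter region that serves both. Such RNAs are known for being made at low levels and in few cell types, and some have been shown to regulate the gene beside them, while for most no function is known.

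RefSeq promoter windows (GRCh38.p14, 250 bases before to 50 after a gene's start, on the RNA's own strand) were found for 104 of the 141 RNAs. The 12 RNAs that RefSeq lists as protein coding were left out of this search. The first set is shown because in these windows the RNA and the gene it is named for start close to each other on opposite strands. SOX21-AS1 (chr13:94712466-94712765, + strand) starts 171 bases from SOX21, DNAJC3-AS1 (chr13:95676876-95677175, - strand) 214 bases from DNAJC3, and RSBN1L-AS1 (chr7:77696216-77696515, - strand) 194 bases from RSBN1L. RSBN1L-AS1 has 2 RefSeq windows, and the one whose start lies nearest to that of RSBN1L is printed. Capitals mark the stretch from one start to the other. DNAJC3-AS1 was chosen after its values were seen.
SOX21-AS1: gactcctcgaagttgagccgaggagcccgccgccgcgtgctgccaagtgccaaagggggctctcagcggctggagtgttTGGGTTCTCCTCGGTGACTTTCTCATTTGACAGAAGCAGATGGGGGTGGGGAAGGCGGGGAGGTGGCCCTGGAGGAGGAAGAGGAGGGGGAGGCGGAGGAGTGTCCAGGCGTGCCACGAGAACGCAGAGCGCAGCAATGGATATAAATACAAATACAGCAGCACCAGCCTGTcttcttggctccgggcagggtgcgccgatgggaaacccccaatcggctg
DNAJC3-AS1: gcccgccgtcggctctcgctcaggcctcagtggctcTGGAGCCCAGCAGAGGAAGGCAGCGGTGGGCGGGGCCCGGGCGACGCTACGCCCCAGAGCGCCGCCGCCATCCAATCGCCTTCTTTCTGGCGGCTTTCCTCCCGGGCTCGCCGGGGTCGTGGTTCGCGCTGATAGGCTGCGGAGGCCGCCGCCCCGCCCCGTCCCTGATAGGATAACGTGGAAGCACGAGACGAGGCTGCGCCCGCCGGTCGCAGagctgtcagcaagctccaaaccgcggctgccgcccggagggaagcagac
RSBN1L-AS1: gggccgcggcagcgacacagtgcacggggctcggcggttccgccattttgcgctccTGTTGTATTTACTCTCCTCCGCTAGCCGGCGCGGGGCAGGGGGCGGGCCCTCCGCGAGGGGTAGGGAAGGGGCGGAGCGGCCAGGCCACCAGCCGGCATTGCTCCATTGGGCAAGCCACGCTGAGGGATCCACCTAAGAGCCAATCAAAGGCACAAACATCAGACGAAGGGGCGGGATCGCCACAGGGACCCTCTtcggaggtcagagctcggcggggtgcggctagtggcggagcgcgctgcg

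The second set is shown because its RNAs were among those that differed most between the tumours: TRHDE-AS1 (chr12:72273460-72273759, - strand), LINC00277 (chr15:69080600-69080899, + strand) and LINC00312 (chr3:8571532-8571831, + strand). Capitals mark matches on either strand to the motifs TATAAA, the TATA box, CCAAT, the CCAAT box, or ACGTG, the core of the hypoxia response element. A match is a description of the letters only.
TRHDE-AS1: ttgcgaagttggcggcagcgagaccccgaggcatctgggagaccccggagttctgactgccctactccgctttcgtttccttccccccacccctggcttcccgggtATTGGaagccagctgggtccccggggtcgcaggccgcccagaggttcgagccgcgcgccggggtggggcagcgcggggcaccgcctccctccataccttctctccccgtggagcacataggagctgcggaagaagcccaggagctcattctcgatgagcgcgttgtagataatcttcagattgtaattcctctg
LINC00277: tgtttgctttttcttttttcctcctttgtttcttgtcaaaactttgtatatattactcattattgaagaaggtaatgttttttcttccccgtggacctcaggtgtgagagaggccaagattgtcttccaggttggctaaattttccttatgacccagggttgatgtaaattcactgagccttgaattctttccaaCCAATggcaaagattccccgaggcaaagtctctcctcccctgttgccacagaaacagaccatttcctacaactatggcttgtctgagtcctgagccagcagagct
LINC00312: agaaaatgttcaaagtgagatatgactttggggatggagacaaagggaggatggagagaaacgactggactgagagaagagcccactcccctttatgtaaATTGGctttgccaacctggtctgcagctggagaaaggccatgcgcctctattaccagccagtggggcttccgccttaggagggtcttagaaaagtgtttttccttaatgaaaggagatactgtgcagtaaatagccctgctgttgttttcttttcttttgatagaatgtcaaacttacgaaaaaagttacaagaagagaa

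Each of these 3 windows held 1 CCAAT match and none of the other motifs, so no matches overlap in them. In the first set, the window of SOX21-AS1 held 1 TATAAA and 1 CCAAT match, that of DNAJC3-AS1 1 CCAAT and 1 ACGTG match, and that of RSBN1L-AS1 2 CCAAT matches. A CCAAT match was held by 34.6% of all 35116 RefSeq windows of this length. It was held by 37.4% of the 131 windows of the RNAs described here, without those RefSeq lists as protein coding. For TATAAA the shares were 8.40% of the RNAs' windows and 11.5% of all windows. They were 22.9% and 21.4% for ACGTG. The windows differ in CG dinucleotides: 2 in that of LINC00277, 4 in that of LINC00312 and 24 in that of TRHDE-AS1, against a median of 14 over all windows. The windows with close opposite starts held 18 for SOX21-AS1, 37 for DNAJC3-AS1 and 30 for RSBN1L-AS1.

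The refractory library held 59902704 expected counts and the untreated library 75722117. Levels are given as CPM, which is the count of a gene relative to the scaled total of its library. The epithelial markers of the line were measured in both tumours, with 7 of 7 between the 2-fold limits and ERBB2 at 7975 CPM in the refractory and 7267 CPM in the untreated tumour. None of 4 endothelial and 6 fibroblast markers reached 300 reads. The endothelial markers summed to 0.287 CPM in the refractory and 1.90 CPM in the untreated tumour, and the fibroblast markers to 2.11 and 2.97 CPM, with CDH5, COL1A2, COL3A1 and DCN at 0 in both. The 5 leukocyte markers summed to 127 CPM in the refractory and 31.3 CPM in the untreated tumour. Nearly all of it came from LYZ (95.9 and 27.2 CPM) and CD68 (29.2 and 3.62 CPM), which epithelial and other cells also make. Both were at least 2-fold higher in the refractory tumour, and which cells gave these counts was not tested. CD14 had 1.43 and 0.445 CPM and PTPRC 0.287 and 0.0654 CPM, with CD3E at 0 in both. Both tumours were grown from the same human line in mice, so the cells of the host are mouse cells. The part of mouse reads in the differences below was not tested. In a piece of tumour fewer cells of a type and less RNA per cell cannot be told apart.

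Most of these RNAs were present at similar levels in both tumours, and among those that differed more were lower than higher in the refractory tumour. A difference was called at 2-fold, on log2 of the ratio of refractory to untreated CPM after 1 CPM was added to both, which understates the differences of scarce RNAs. Of the 141 RNAs, 9 were at least 2-fold higher, beside 9.70% of the 11551 rows that met the same position rule and count minimum (6.38% of the RNAs). A further 22 were at least 2-fold lower, beside 10.1% of those rows (15.6% of the RNAs), and 110 lay between. The median log2 difference was -0.08 over the RNAs and 0.04 over all those rows. Since the RNAs were admitted on these same counts, these shares are a description.

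**Figure D1:**
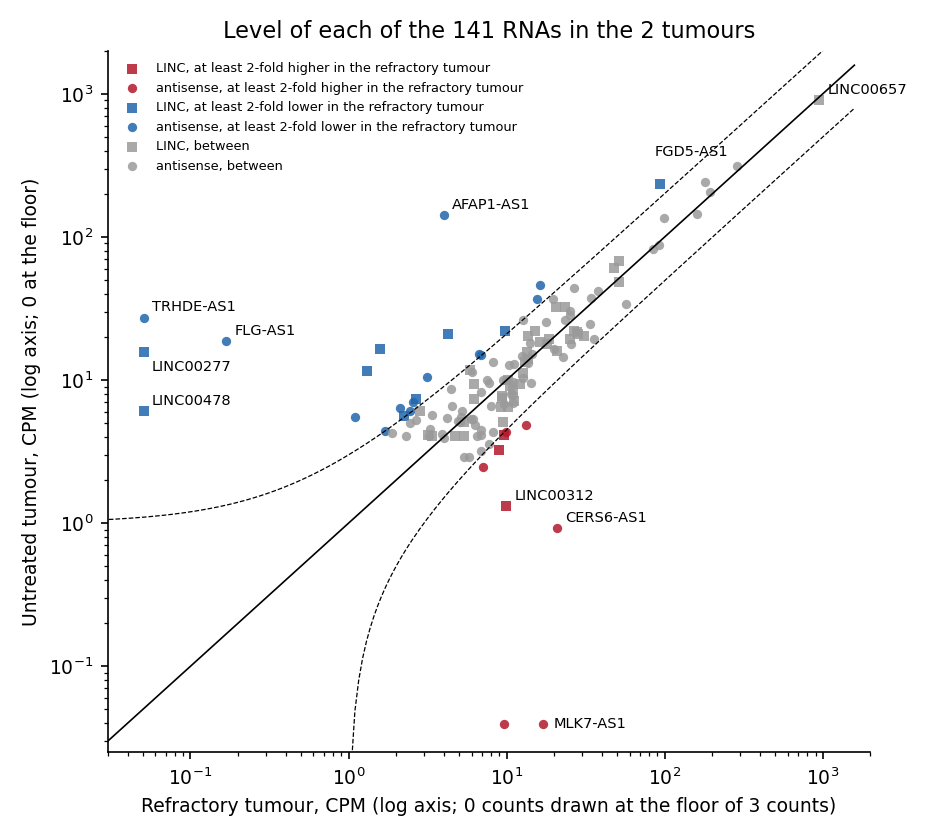
Level of each of the 141 RNAs in the refractory tumour (x axis, CPM, log scale) and in the untreated tumour (y axis, CPM, log scale), with 1 point per RNA, squares for LINC and circles for antisense names. The solid line marks equal levels and the dashed lines the 2-fold limits after adding 1 CPM. Most points follow the solid line, while AFAP1-AS1 lies far above it at 3.99 and 142 CPM and MLK7-AS1 far below it at 17.0 and 0.0392 CPM.

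Differences were more frequent among rows with fewer reads. In rows with at least 300 but fewer than 1000 reads in the higher library, 12.7% of 2487 rows were higher and 14.5% lower. Of the 80 RNAs in that range, 7 were higher (8.75%) and 10 lower (12.5%), so both shares were below those of all rows of that depth. Of the 61 RNAs with 1000 reads or more, 2 were higher (3.28%) and 12 lower (19.7%), beside 8.89% and 8.94% of the 9064 rows of that depth. Past 4-fold, 4 RNAs were higher and 8 lower, beside 2.64% and 4.01% of all rows. The name classes had similar shares. Of 52 LINC RNAs 3 were higher and 9 lower, and of 89 antisense RNAs 6 were higher and 13 lower, with median log2 differences of -0.01 and -0.13.

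**Figure D2:**
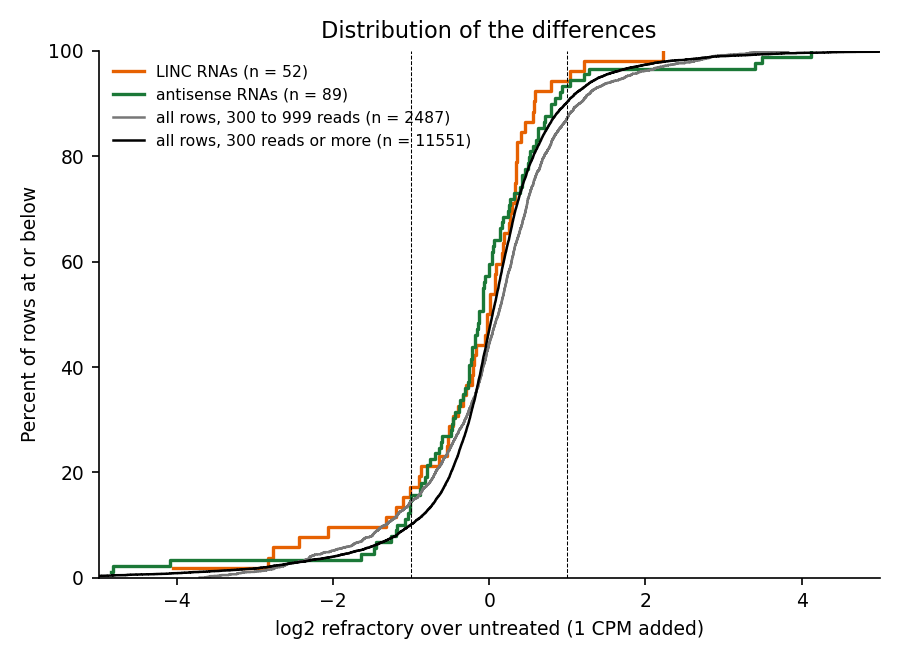
Percent of rows at or below each log2 difference, refractory over untreated, for the 52 LINC RNAs, the 89 antisense RNAs, all 2487 rows with fewer than 1000 reads and all 11551 rows with 300 reads or more. The dashed lines mark 2-fold. At the lower limit the curves of the LINC RNAs (17.3%) and antisense RNAs (14.6%) stand above that of all rows (10.1%) and at or above that of the rows with fewer than 1000 reads (14.5%).

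Compared per length, as FPKM, these RNAs were scarcer than the other genes. Their median was 4.50 FPKM in the refractory and 4.78 FPKM in the untreated tumour, against 13.4 and 13.1 FPKM over all rows with 300 reads or more. Together they took 0.369% of the counts of the refractory and 0.429% of those of the untreated library. A few were abundant, and none of the 10 with the highest FPKM differed by 2-fold.

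FAM211A-AS1, listed in RefSeq as the small nucleolar RNA host SNHG29, led with 238 FPKM in the refractory and 218 FPKM in the untreated tumour. LINC00657, known as NORAD, an abundant cytoplasmic RNA that binds Pumilio proteins and is induced by DNA damage, stood at 186 and 180 FPKM (948 and 902 CPM, ratio 1.05, 95% interval 1.04 to 1.06). FGD5-AS1 had 83.2 and 93.3 FPKM. These 3 differed little between the tumours. FAM83H-AS1 (count ratio 0.740, 95% interval 0.723 to 0.758) and PAX8-AS1 (53.8 and 69.1 FPKM), named for the thyroid and kidney transcription factor PAX8, were lower in the refractory tumour by less than 2-fold. LINC00493, LINC00152, THAP9-AS1, HNRNPU-AS1 and CEBPZ-AS1 had between 29.2 and 61.5 FPKM in the refractory and between 28.8 and 53.1 FPKM in the untreated tumour. LINC00152 is CYTOR, an RNA often reported as raised in carcinomas, and its 48.7 and 36.6 FPKM gave a count ratio of 1.29 (95% interval 1.15 to 1.44).

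Names from older annotation do not always mark a non-coding RNA. All 141 symbols were matched in RefSeq, 51 of them under another symbol, and the position in the table lay inside the RefSeq gene for 136. RefSeq lists 126 as long non-coding RNA, 2 as antisense RNA, 12 as protein coding and 1 as a transcribed pseudogene. Among the protein-coding ones are LINC00493 (SMIM26) and CEBPZ-AS1 (CEBPZOS), both of which encode small proteins. HNRNPU-AS1 and TNRC6C-AS1 were matched through a synonym that points to a gene beside them, so their listing as coding is uncertain. Of the 12, 1 was past 2-fold, TNRC6C-AS1, which was lower.

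Among the 9 higher RNAs, MLK7-AS1 and CERS6-AS1 had the largest log2 differences with 1 CPM added. MLK7-AS1 (chr2:173197712-173282036, - strand, MAP3K20-AS1 in RefSeq) had 1011 counts (17.0 CPM) in the refractory and 3 counts (0.0392 CPM) in the untreated tumour. Its ratio was 434, with a counting interval of 148 to 2109, and its log2 difference with 1 CPM added was 4.12. ZAK, the stress-activated kinase gene it is named for, stood at 150 CPM in the refractory and 122 CPM in the untreated tumour, a log2 difference of 0.30. Nearly all counts of the antisense RNA were thus in the refractory library, while its partner was present in both.

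CERS6-AS1 (chr2:168771951-168786429, - strand) had 20.7 CPM in the refractory and 0.929 CPM in the untreated tumour, a ratio of 22.3 (95% interval 17.6 to 28.8). CERS6, which encodes a ceramide synthase, had 429 and 411 CPM (ratio 1.04, 95% interval 1.03 to 1.06). The exons of CERS6-AS1 overlap those of CERS6 by 2999 bases in GENCODE 29, and those of MLK7-AS1 overlap those of its partner by 427 bases.

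LINC00312 (chr3:8571782-8574668), an RNA reported as lost in nasopharyngeal carcinoma, stood at 9.89 CPM in the refractory and 1.32 CPM in the untreated tumour, a ratio of 7.49 (95% interval 6.05 to 9.34). Its promoter window is among those printed above. A further 5 of the higher RNAs were near the limit, with log2 differences from 1.03 to 1.28. CD27-AS1 had 13.2 and 4.88 CPM, although CD27, a receptor of lymphocytes, had 2 counts in the refractory and 1 in the untreated library. LINC01137 had 8.92 and 3.27 CPM, and LINC00346 had 9.61 and 4.16 CPM. FAM13A-AS1 had 7.06 and 2.49 CPM beside its partner FAM13A, which codes for a GTPase-activating protein and had 72.8 and 35.0 CPM. RSBN1L-AS1, known as APTR, an RNA reported to repress CDKN1A, had 9.94 CPM in the refractory and 4.36 CPM in the untreated tumour (ratio 2.28, 95% interval 1.99 to 2.62). RSBN1L, which starts 194 bases away in the window printed above, had 43.2 and 54.6 CPM. Just short of the limit were SRP14-AS1 (7.75 and 3.60 CPM), OSER1-AS1 (6.91 and 3.22 CPM) and DYNLL1-AS1 (35.5 and 19.4 CPM), the last known as NRAV, a negative regulator of antiviral genes.

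The 22 lower RNAs include 3 with no counts in the refractory tumour, and AFAP1-AS1, whose log2 difference with 1 CPM added was -4.84. AFAP1-AS1 (chr4:7754090-7778928, + strand), an RNA reported as raised in several carcinomas, had 237 counts (3.99 CPM) in the refractory and 10856 counts (142 CPM) in the untreated tumour. It was 35.5-fold lower (95% interval 31.2 to 40.6). AFAP1, which encodes an actin filament-associated protein, differed the other way, at 82.2 CPM in the refractory and 16.8 CPM in the untreated tumour (ratio 4.90, 95% interval 4.61 to 5.22). With 1 CPM added the log2 differences of the antisense RNA and its partner were 7.07 apart, and the annotated exons overlap by 523 bases.

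TRHDE-AS1 (chr12:72253507-72273509, - strand) had 0 counts in the refractory and 2085 counts (27.3 CPM) in the untreated tumour. With the refractory library set to its floor of 3 counts (0.0506 CPM) it would be 539-fold lower, and the exact interval begins at 438-fold. TRHDE, the ectoenzyme that degrades thyrotropin-releasing hormone, had 3 counts (0.0506 CPM) in the refractory and 1457 counts (19.1 CPM) in the untreated tumour, so this locus gave almost no counts from either gene in the refractory library. FLG-AS1 (chr1:152189303-152366692, + strand, CCDST in RefSeq) had 10 counts (0.169 CPM) in the refractory and 1437 counts (18.8 CPM) in the untreated tumour and was 112-fold lower (95% interval 60.5 to 233). FLG, filaggrin of the cornified epidermis, stood at 0.320 CPM in the refractory and 21.2 CPM in the untreated tumour.

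LINC00277 (chr15:69080850-69095824, + strand), known as EWSAT1, an RNA described in Ewing sarcoma, had 0 counts in the refractory and 1193 counts (15.6 CPM) in the untreated tumour. Set to the floor it would be 309-fold lower, with the exact interval beginning at 251-fold. LINC00478 (chr21:16070488-16631727, + strand), the microRNA host MIR99AHG in RefSeq, had 0 counts in the refractory and 466 counts (6.10 CPM) in the untreated tumour. Set to the floor it would be 121-fold lower, with the interval beginning at 97.6-fold. LINC00277, LINC00478 and TRHDE-AS1 were the 3 RNAs with 0 counts in the refractory library.

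LINC00622 was 10.5-fold lower (1.58 CPM in the refractory and 16.6 CPM in the untreated tumour, 95% interval 8.50 to 13.1). LINC00472, reported as a suppressor of growth in breast cancer cells, was 8.73-fold lower (1.31 and 11.5 CPM, 95% interval 6.92 to 11.2). LINC00886 was 4.91-fold lower (4.25 and 20.9 CPM, 95% interval 4.30 to 5.64). These LINC RNAs remained detectable in both tumours. HEXA-AS1 had 1.10 and 5.52 CPM, while HEXA, the alpha subunit of lysosomal hexosaminidase, had 96.2 CPM in the refractory and 49.9 CPM in the untreated tumour. LINC00674, with more reads than any other of the lower RNAs, had 93.6 CPM in the refractory and 236 CPM in the untreated tumour and was 2.52-fold lower (95% interval 2.45 to 2.60).

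BZRAP1-AS1 (16.4 and 46.2 CPM) and SOX21-AS1 (3.15 and 10.5 CPM) were lower together with their partners. The exons of BZRAP1-AS1 overlap those of BZRAP1 by 252 bases and those of RNF43, also on the opposite strand, by 1521 bases. RNF43 had 198 CPM in the refractory and 410 CPM in the untreated tumour. Whether BZRAP1-AS1 was given reads of RNF43 was not tested. BZRAP1, whose product binds the mitochondrial translocator protein, had 0.860 CPM in the refractory and 27.3 CPM in the untreated tumour, and SOX21, a transcription factor that shares the promoter window printed above, had 0.994 and 4.46 CPM. DNAJC3-AS1 (6.93 and 15.1 CPM) was lower without its partner: DNAJC3, a co-chaperone of the endoplasmic reticulum, had 163 CPM in the refractory and 153 CPM in the untreated tumour. In the 3 printed windows with close opposite starts, the RNA and the gene were thus called together in that of SOX21-AS1 and the RNA alone in the others. The remaining lower RNAs had log2 differences between -1.25 and -1.01. Of these, FOXD2-AS1 (2.56 and 7.08 CPM) and LINC00511 (2.26 and 5.58 CPM) have been reported as raised in many carcinomas, and FOXD2 itself had 1.30 CPM in the refractory and 5.47 CPM in the untreated tumour.

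**Figure D3:**
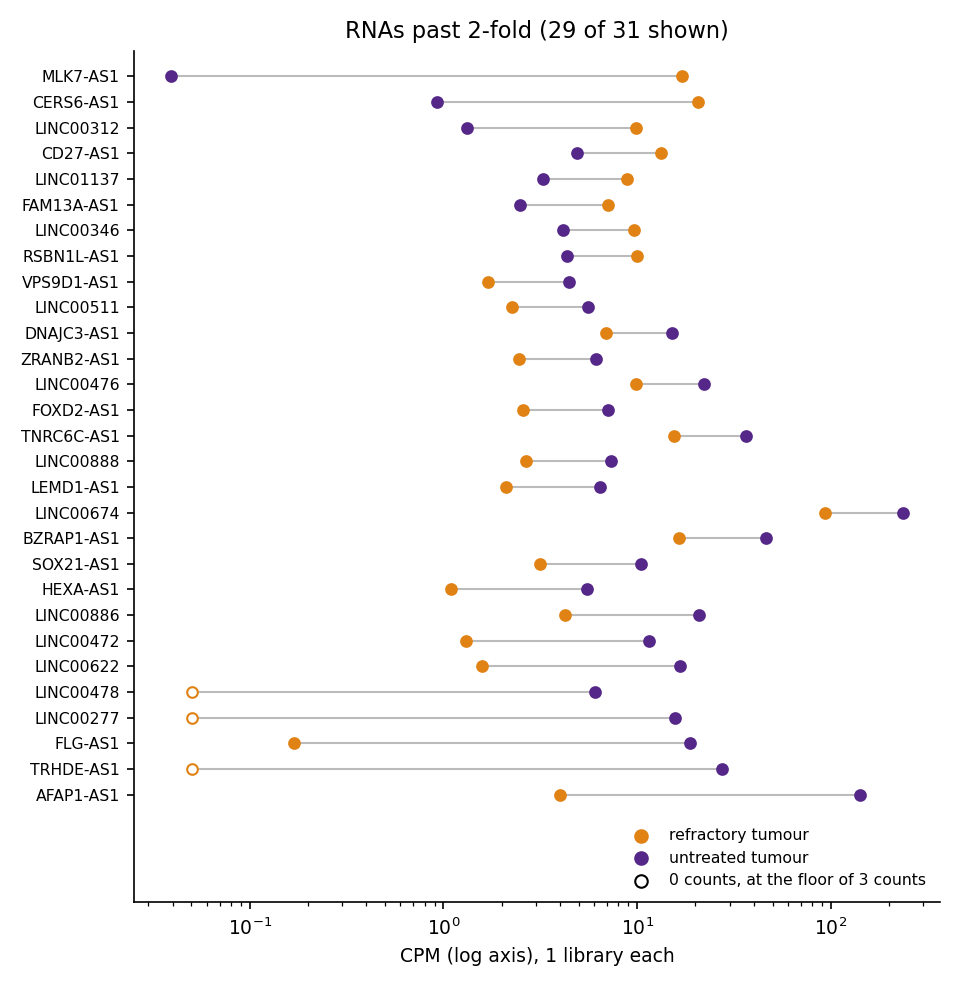
The RNAs past 2-fold that are shown by name (29 of 31), ordered by log2 difference, with the CPM of the refractory tumour (orange) and of the untreated tumour (purple) on a log axis, 1 library each. Open circles mark 0 counts, drawn at the floor of 3 counts. The refractory value lies to the right for the upper 8 RNAs and to the left for the lower 21, and 3 of these have open refractory circles.

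The authors' deposited table gave p under 0.05 to 13 of the 141 RNAs, 4 higher and 9 lower, beside 6.89% of all rows with 300 reads or more (2.68% higher and 4.21% lower). In the authors' deposited table p was 3.3e-10 for TRHDE-AS1, 5.7e-05 for AFAP1-AS1 and 6.2e-08 for MLK7-AS1. Those values set 1 library against 1 and rest on the counts that selected these RNAs.

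All 89 antisense RNAs had a row for the gene they are named for, and 81 of those genes had 300 reads or more. In 50 of the 81 pairs neither side was past 2-fold. In 8 pairs both were past it in the same direction, 2 higher and 6 lower. FAM13A-AS1 was higher with its partner, and TRHDE-AS1, FLG-AS1, BZRAP1-AS1, SOX21-AS1, FOXD2-AS1 and TNRC6C-AS1 were lower with theirs. In 1 pair, that of AFAP1-AS1, the directions were opposite. The antisense RNA alone was past the limit in 9 pairs and the partner alone in 13, beside 9.70% of all rows higher and 10.1% lower. Over all 89 pairs the log2 differences correlated with Pearson's r = 0.45 and a Spearman coefficient of 0.39, a description over pairs that share their libraries. Without the 5 pairs whose antisense RNA differed most, r over the measured pairs was 0.53, against 0.46 with them.

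With 1 CPM added, the pairs that differed most were those of AFAP1-AS1, MLK7-AS1, CERS6-AS1, PAXIP1-AS1, HEXA-AS1 and BZRAP1-AS1. PAXIP1-AS1 stood at 7.92 CPM in the refractory and 6.54 CPM in the untreated tumour (ratio 1.21, 95% interval 1.07 to 1.38). PAXIP1, a protein of the DNA damage response and of histone methylation complexes, had 23.8 CPM in the refractory and 0.902 CPM in the untreated tumour, 26.4-fold higher (95% interval 20.7 to 34.1). In this pair the partner carried the difference, and the annotated starts lie 364 bases apart on opposite strands.

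**Figure D4:**
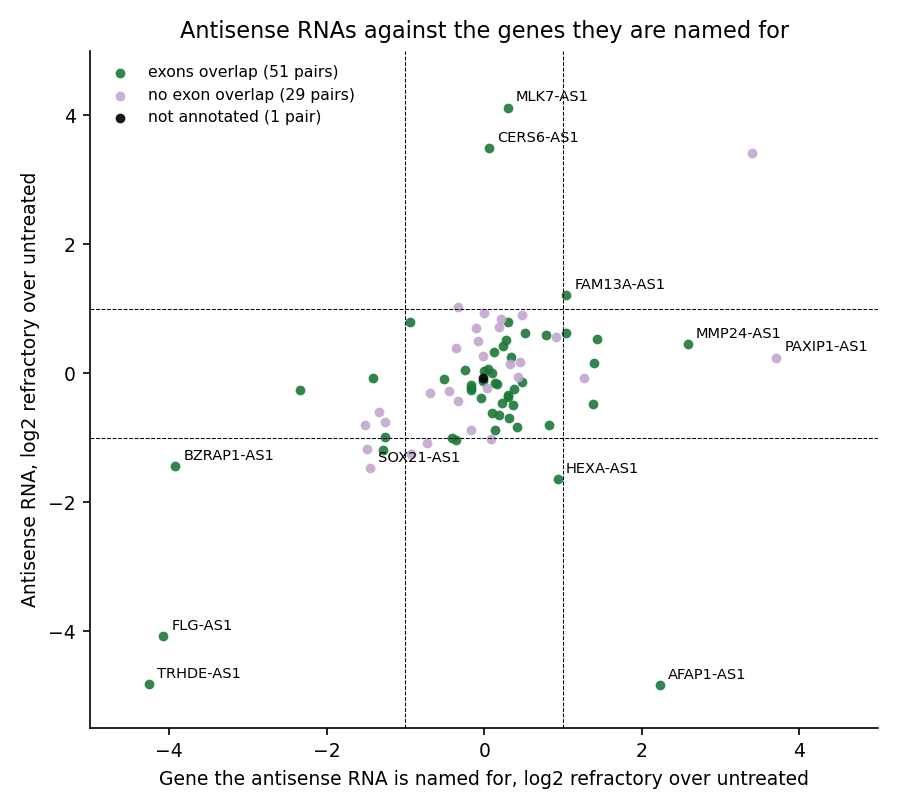
Log2 difference, refractory over untreated, of 81 antisense RNAs (y axis) against that of the gene each is named for (x axis), coloured by whether annotated exons overlap. Dashed lines mark 2-fold. TRHDE-AS1 and FLG-AS1 lie near the diagonal in the lower left corner, AFAP1-AS1 lies in the opposite corner at -4.84 with its partner at 2.23, and MLK7-AS1 and CERS6-AS1 lie above partners near 0.

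The sources used here do not say whether reads were counted by strand, so reads of overlapping exons may have been assigned to either gene. In GENCODE 29, 88 of the 89 pairs were annotated, all on opposite strands; 67 overlap as genes, 57 share exon bases and 36 have starts within 1 kb. A count that was not whole, the mark of reads divided between genes, occurred in 25 of the 57 RNAs whose exons overlap (43.9%) and in 1 of the 31 others (3.23%). Of the 8 pairs called in the same direction, 5 share exon bases, as do 51 of the 81 measured pairs. The antisense values in those 5 are uncertain to that degree. The pairs of SOX21-AS1 and FOXD2-AS1 share none. Pearson's r was 0.39 over the 51 measured pairs that share exon bases and 0.68 over the 29 annotated without. Why these differ was not tested. Among measured pairs with starts within 1 kb, 1 of 35 was called the same way, and among those with starts farther apart, 7 of 45. The partner was past 2-fold in 14.3% of the first kind (5 of 35) and 37.8% of the second (17 of 45). It was past 2-fold in 27.2% of all 81 measured pairs, beside 9.70% of all rows higher and 10.1% lower.

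The level of an RNA can also go with its chromosome neighbourhood, taken as the median log2 difference of the 14 nearest other genes with 300 reads or more. The neighbourhood was called shifted when it differed from the median of all rows by at least 0.8, and this held for 8 of the 141 RNAs. NOP14-AS1, CTBP1-AS2, TRAM2-AS1, LINC01011 and PINK1-AS lay in neighbourhoods higher in the refractory tumour (medians 0.93 to 1.06) and were themselves between the limits, with log2 differences of 0.16 to 0.63. CDKN2B-AS1, known as ANRIL, lay beside CDKN2A and CDKN2B in a neighbourhood with a median of -1.19 and had 2.68 CPM in the refractory and 5.22 CPM in the untreated tumour, a log2 difference of -0.76.

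FLG-AS1 was lower in a lower neighbourhood (-0.77). AFAP1-AS1 was lower in a neighbourhood with a median of 1.27, in which 9 of the 14 genes were at least 2-fold higher and 0 lower. For 29 of the 31 RNAs past 2-fold the neighbourhood was not shifted. The 14 genes spanned a median of 1853 kb, so a difference confined to fewer of them would not show in their median. The single nearest gene went the same way for some RNAs, such as CDCA7 beside MLK7-AS1 (log2 difference 2.78). It did not for others, such as TBC1D15 beside TRHDE-AS1 (0.03). Over all 141 RNAs the difference of an RNA and that of its neighbourhood correlated with Pearson's r = 0.14 and a Spearman coefficient of 0.24, a description over RNAs that share their libraries and in part their neighbours. ARHGAP5-AS1, in the part of chromosome 14 left out, is given with the closing values.

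**Figure D5:**
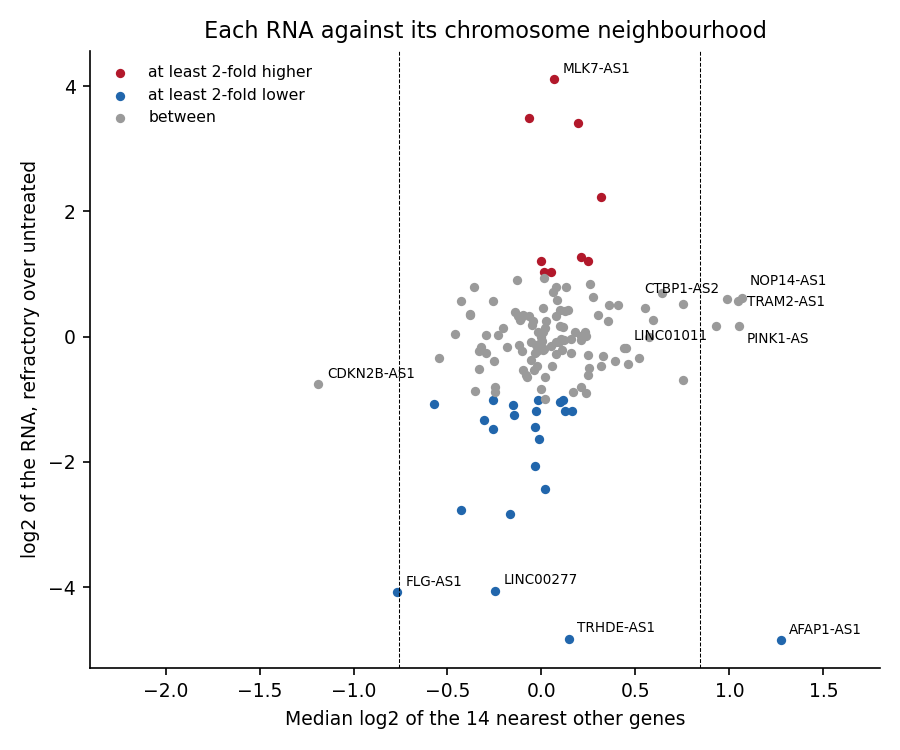
Log2 difference of each of the 141 RNAs (y axis) against the median log2 difference of its 14 nearest other genes (x axis), both refractory over untreated. Dashed lines mark the limits of a shifted neighbourhood. AFAP1-AS1 lies at -4.84 where its neighbours have a median of 1.27, while most RNAs past 2-fold lie between the dashed lines.

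Of 69 long non-coding RNAs of the same name classes that are often studied in cancer and were in the table, 23 reached the count minimum, and 2 of them were higher, 3 lower and 18 between. Over all rows under the same minimum 9.70% were higher and 10.1% lower, so these counts are near the share of all rows. LINC00312 was among the higher ones, and the lower ones were AFAP1-AS1, FOXD2-AS1 and LINC00511. Long non-coding RNAs with other names were read from lists that hold none of the 141, and their counts stand beside those same shares. Of 15 measured hosts of small nucleolar RNAs, which are spliced RNAs whose introns yield guides for RNA modification, 0 were past 2-fold at a median log2 difference of 0.26. SNHG5 came nearest to the limit, with 18.6 CPM in the refractory and 9.06 CPM in the untreated tumour.

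Of 7 measured microRNA hosts, 1 was higher and 2 lower. MIR210HG, host of a microRNA induced by hypoxia, had 8.38 CPM in the refractory and 2.83 CPM in the untreated tumour (ratio 2.97, 95% interval 2.52 to 3.50). MIR31HG had 2.78 and 65.0 CPM, 23.4-fold lower (95% interval 20.02 to 27.5), and MIRLET7BHG had 2.80 and 9.73 CPM. Of 13 measured well-known RNAs, 2 were higher and 0 lower. CRNDE, raised in colorectal tumours, had 19.7 and 5.74 CPM, and UCA1, first described in bladder carcinoma, had 33.4 and 16.0 CPM. The nuclear RNAs MALAT1 (1858 CPM in the refractory and 2856 CPM in the untreated tumour) and NEAT1 (3010 and 3072 CPM) lay between the limits.

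The count minimum passed and failed RNAs with nearly the same counts. Just inside were TMPO-AS1 (239 counts in the refractory and 300 in the untreated library), LINC01011 (280 and 311) and LINC00858 (199 and 312). Just outside were UBL7-AS1 (208 and 299.1), LINC00339 (295 and 154) and PAXBP1-AS1 (184 and 295). Their log2 differences ran from -0.22 to 0.17 inside and from -0.24 to 0.99 outside. The minimum was set on reads, and the untreated library is deeper, so a row could pass at a lower CPM through it. LINC00339 was left out at 4.97 CPM in the refractory and 2.01 CPM in the untreated tumour. TMPO-AS1 was admitted at 4.03 and 3.92 CPM. All rows were held to the same minimum.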

How the data were processed

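The values come from 1 table deposited by the authors, which gives each human gene a read count and an FPKM per library, a log2 fold change and a p-value. Per the file headers the counts are read counts; as deposited they are expected counts, 93.2% of them whole in the refractory and 92.8% in the untreated library within 0.001. The submitters' processing notes name STAR 2.7.0e, RSEM 1.2.28, edgeR 3.26.8 and bcl2fastq 2.20, and the builds GRCh38 and GRCm38. The sources used here do not give their roles, the annotation, strand handling or the dispersion behind the deposited p-value. The deposited FPKM were used for levels between genes. The authors' deposited log2 differed by at most 0.00387 from the TMM-scaled log2 ratio computed here, over 13005 genes.

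Expected counts were rounded and scaled with TMM (edgeR 4.0.16, R 4.3.3; factors 0.990 refractory and 1.01 untreated). Further steps used Python 3.11.15 with pandas 2.3.3 and scipy 1.17.1. Calls are 2-fold on log2 of CPM with 1 CPM added. Ratio intervals are exact 95% intervals of 2 Poisson counts and, like the floor of 3 counts, cover counting error only, since without molecular identifiers reads are not independent molecules. The interval was checked on Poisson counts simulated with known ratios. That checks the computation only, since no spread between tumours and no sharing of reads between genes was simulated. Partners came from names and RefSeq synonyms, geometry from GENCODE 29. Positions and sequences are RefSeq GRCh38.p14, and the table's own coordinates give 1 position for 139 of the RNAs. The samples' groups came from the treatment labels.

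The members, gene lists and rules were chosen with earlier results of these data known. Named are the 12 RNAs with the largest differences each way, the 10 highest by FPKM, those at 0 in 1 library, the 6 that differ most from their partner, often-studied RNAs past 2-fold, and 3 on each side of the count minimum; others, among them the RNAs in shifted neighbourhoods, were chosen after their values were seen. Some results under these rules are not given here. Alternatives were other scalings, pseudocounts, count minimums, thresholds and FPKM.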

Additional observations from a re-analysis of the deposited data

Results flagged for a closer look

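ARHGAP5-AS1, an antisense RNA in the stretch of chromosome 14 left out by position, was drawn out because it carries a signal in a row that the comparison does not use. It had 905 counts (15.3 CPM) in the refractory and 250 counts (3.27 CPM) in the untreated tumour, a ratio of 4.67 (95% interval 4.05 to 5.39). Its partner ARHGAP5, a GTPase-activating protein, had 1069 CPM in the refractory and 223 CPM in the untreated tumour.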

How the results depend on the processing

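With 5 CPM added in place of 1 CPM, 4 RNAs were higher and 11 lower, beside 6.77% and 6.97% of all rows, and 4 pairs were called the same way. At a count minimum of 1, 17 of 737 RNAs were higher and 35 lower (6.88% and 7.70% of all such rows); at 100, 15 and 34 of 251 (9.89% and 11.1%); at 1000, 2 and 12 of 61 (8.89% and 8.94%). At 1.5-fold 20 were higher and 36 lower (19.3% and 17.1% of all rows), and at 4-fold 4 and 8 (2.64% and 4.01%). Among alternatives chosen after seeing the data, leaving out RNAs with counts that were not whole left 100, with 5 higher and 17 lower. Of all rows, whole or not, 9.70% were higher and 10.1% lower. Leaving out pairs with overlapping exons, also chosen after seeing the data, left 3 of 29 called the same way. Why these counts differ from the main ones was not tested. Under 3 other scalings, 0.1 CPM added and FPKM, 9 to 11 RNAs were higher and 23 to 26 lower. Of all rows, 9.19% to 10.5% were then higher and 10.2% to 10.9% lower. Without RNAs in shifted neighbourhoods, 9 of 133 were higher and 20 lower. Without RNAs listed as coding or pseudogene, 9 of 128 were higher and 21 lower. Beside these last 2 sets stand 9.70% of all rows higher and 10.1% lower. The scalings, 0.1 CPM and FPKM each gave 9 pairs called the same way, against 8. The median of all rows moved by at most 0.03 between scalings. Over all scalings, pseudocounts and FPKM, 15 of the 31 RNAs stayed past 2-fold, 4 higher and 11 lower. None of 240 recomputed differences of the 40 named RNAs changed sign as a call, and 69 moved by more than counting error.

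No paired analysis was possible because each group holds 1 library, and for the same reason leaving out a library gives no comparison. Depth limits the scarce RNAs: 3 counts are 0.0506 CPM in the refractory and 0.0392 CPM in the untreated library, so RNAs at 0 there are not shown to be absent.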

Other observations

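For a few RNAs the deposited FPKM and counts did not move together. TTC28-AS1 had 11.8 FPKM in the refractory and 5.38 FPKM in the untreated tumour, a ratio of 2.198, while its counts gave 10.9 and 7.87 CPM, a ratio of 1.39 (95% interval 1.24 to 1.55). The ratio of counts to FPKM corresponds to an effective length of 914 bases in the refractory and 1478 bases in the untreated library. SRP14-AS1 went the other way, with 4.15 and 2.51 FPKM (ratio 1.65) against a count ratio of 2.16. Both were chosen after their values were seen.

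On chromosome X, outside the position rule, 4 RNAs with such names had at least 300 reads in 1 library. ASMTL-AS1, LINC00893, LINC00894 and ZNF674-AS1 had between 4.85 and 8.38 CPM in the refractory and between 6.41 and 11.4 CPM in the untreated tumour, all between the 2-fold limits.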
